A study of Homo sapiens with 18 samples.

Results

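The comparison described here is the difference between 2 responses to interleukin-4 (IL-4): the response of cells with an active NOTCH1 fragment (NIC1) minus the response of cells with a dominant-negative Mastermind-like protein (DNMAML). It was taken from 12 of the 18 RNA-seq libraries of the series, namely 3 each of NIC1 with IL-4, NIC1 unstimulated, DNMAML with IL-4 and DNMAML unstimulated. The other 6 libraries carried an empty vector (IRES) and entered only the estimate of spread and the choice of IL-4-responsive genes. The 12 libraries were named by the rule of the comparison and not by any measured value.

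The cells of all groups were THP-1, a line established from a human monocytic leukaemia. Retroviral MSCV-GFP vectors delivered MYC-tagged NIC1 (MSCV-GFP-MYC-NIC1), DNMAML (MSCV-GFP-DNMAML) or IRES alone (MSCV-GFP-IRES), and GFP-positive cells were sorted. Every group, the unstimulated ones included, was pretreated with the phorbol ester PMA at 5 ng/ml for 48 h, which gives THP-1 macrophage-like features. IL-4 was then given at 20 ng/ml for 3 h, or the cells were left unstimulated. Each construct was overexpressed from a retroviral vector in 1 cell line, so the fragment and the blocking protein are not at native levels, and neither construct's IL-4 response is that of unmodified cells. Libraries carry the experiment numbers 1, 2 and 3, once in each group. Nothing in the labels says whether a number marks separate transductions, and the p-values therefore measure library-to-library spread, part of which may be technical.

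Notch receptors are cut after ligand binding, and the freed intracellular domain enters the nucleus. There it binds the DNA-binding protein RBPJ and a Mastermind-like coactivator (MAML1 to MAML3), which recruits the acetyltransferases EP300 and CREBBP to targets such as HES1, HES4 and HEY1. NIC1 supplies that domain without ligand, and DNMAML occupies the complex without recruiting coactivators. IL-4 signals through its receptor and JAK kinases to the transcription factor STAT6, which in macrophages raises feedback inhibitors such as CISH and SOCS1 and genes of alternative activation such as ALOX15, TGM2 and F13A1. The comparison asks whether raised and lowered Notch signalling change that transcriptional response.

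Each library held 12410668 to 15099788 counts in genes. Libraries of experiment 2 differed from those of experiments 1 and 3 in every group, with 2.66% to 2.98% of counts in mitochondrially encoded genes. In experiments 1 and 3 that share was 1.34% to 1.73%, except in 1 library that stood apart within its group. This library, DNMAML with IL-4 in experiment 3, had only 0.665%. It had at least 1 count in 25322 genes, against 21067 to 21524 in the other 11. For gene differences and list counts printed here that moved by over 1.5 times without DNMAML experiment 3, the value without it is given too. The genes raised by IL-4 in IRES cells and the tertiles of gene length were not counted without it. The label of each construct was matched by its gene. NOTCH1 lay at 368, 453 and 367 CPM (read counts scaled to a common library size) in NIC1 with IL-4 and 245, 350 and 267 CPM in NIC1 unstimulated, above every DNMAML library (133 to 237 CPM), and MAML1 lay at 76.0 to 92.9 CPM in the NIC1 libraries, below every DNMAML library (125, 116 and 102 CPM with IL-4 and 132, 123 and 139 CPM unstimulated). Reads of a vector insert and of the cell's own gene cannot be told apart in these counts. Of the macrophage markers, CSF1R, ITGAM and SPI1 were at 150 to 422 CPM, while CD14 (1.91 to 9.26 CPM) and CD68 (0.401 to 1.60 CPM) were low in all 12 libraries. The summed level of 7 T cell markers was 22.6 to 32.2 CPM in NIC1 with IL-4, 28.2 to 45.9 CPM in NIC1 unstimulated, 1.5 to 3.88 CPM in DNMAML with IL-4 and 2.73 to 6.15 CPM in DNMAML unstimulated. The CD3 chain gene CD3D was at 18.8 to 41.6 CPM in NIC1 and 0.885 to 4.69 CPM in DNMAML libraries, and CD3G at 2.83 to 4.79 CPM in NIC1 and 0 to 0.133 CPM in DNMAML libraries. The other defining markers CD3E, CD247, CD2 and CD5 stayed at or under 0.304 CPM in every library, and their part in the results was not tested.

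Promoter sequence is shown for 3 of the genes with a called difference, since the comparison turns on a factor that acts through RBPJ sites, and a pair of these genes, EPAS1 and EGLN3, belong to the oxygen-sensing system. Of the 13 called genes, 11 had at least 1 promoter in the RefSeq table (GRCh38.p14), with 15 promoters in all, and the 250 bases before each start were searched on both strands. The letters searched were TGGGAA, the core that RBPJ binds, TTC and GAA spaced by 4 bases, a STAT6-type palindrome, and ACGTG, the core of the hypoxia response element. TGGGAA was present in the promoters of 2 of these 11 genes, NCR3LG1 among them, and in 20.9% of 34943 promoters of the same length. The STAT6-type palindrome was in none of the 15, against 5.39%. ACGTG was present in those of FOXP4 and RREB1 among the 11 genes, and in 18.5% of all promoters. A gene can have more than 1 promoter, so counts of genes and shares of promoters are unlike measures. The motifs were counted separately, so a base could belong to more than one. NCR3LG1 holds 1 copy close to its start (chr11:17351768-17351797, plus strand). In the EPAS1 stretch (chr2:46297157-46297401, plus strand) and the EGLN3 stretch (chr14:33951082-33951324, minus strand), which end where annotated exons begin, none of the 3 was found. Capitals mark TGGGAA, all stretches run 5′ to 3′, and a match is a description of these letters, not a binding site.
NCR3LG1: gcagtgcgaaccTGGGAAatccaggcgact
EPAS1: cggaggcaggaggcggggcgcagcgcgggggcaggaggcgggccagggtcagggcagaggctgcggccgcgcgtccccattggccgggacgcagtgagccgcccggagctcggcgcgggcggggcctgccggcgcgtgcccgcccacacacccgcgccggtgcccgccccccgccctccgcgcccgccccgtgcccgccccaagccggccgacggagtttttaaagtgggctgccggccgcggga
EGLN3: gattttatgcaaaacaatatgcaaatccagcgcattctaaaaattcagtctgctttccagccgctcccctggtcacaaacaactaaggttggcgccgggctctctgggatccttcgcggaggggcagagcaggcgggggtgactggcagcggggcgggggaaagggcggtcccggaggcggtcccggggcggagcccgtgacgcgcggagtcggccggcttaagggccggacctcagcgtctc

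The IL-4 responses of NIC1 and DNMAML cells were close over most genes, and the fit called a difference for 13 of 15037 genes (0.0865%). In 11 of them (0.0732% of genes tested) the NIC1 response lay above the DNMAML response: F13A1, NCR3LG1, BCL7A, EPAS1, PDE4A, FOXP4, FCGR2A, PTPN14, RREB1, SMOX and MAP3K14. EGLN3 and SDC2 (0.0133%) lay below. As background, IL-4 raised 1138 genes (7.57%) and lowered 1019 (6.78%) in NIC1 cells, 14.3% of genes together, and raised 1197 (7.96%) and lowered 1363 (9.06%) in DNMAML cells, 17% together. Calls rest on edgeR's quasi-likelihood test with 1 block per construct and experiment number and an adjusted p under 0.05 over all genes. At an unadjusted p under 0.05 the difference was above 0 for 764 genes (5.08%) and below 0 for 540 (3.59%), 8.67% in all. The median standard error of a difference was 0.117 on the log2 scale and the median half-width of its 95% interval 0.241. That half-width belongs to an unadjusted p of 0.05, and a call needed a far smaller p. MAP3K14, the last gene called, had an unadjusted edgeR p of 4.31e-05. Its log2 difference was 0.49 at a standard error of 0.101, which is below the median. In a typical gene, differences well over 0.241 could therefore exist without being called.

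The number of calls depended on the model and on single libraries. Without the replicate block no gene was called, with 214 at an unadjusted p under 0.05, and DESeq2 called 7, all among the 13. An added IL-4 effect per experiment number gave 55 calls, the 13 included. That fit takes part of the IL-4 effect to be shared between constructs at the same number. Across genes, deviations of the NIC1 and DNMAML responses at the same number had a Pearson r of -0.021, 0.023 and -0.0006 in experiments 1 to 3. Calls from that fit alone rest on this assumption. Leaving out 1 IL-4 pair gave 4 calls without NIC1 experiment 1, 30 without NIC1 experiment 2, 2 without NIC1 experiment 3, 1 without DNMAML experiment 1, 126 without DNMAML experiment 2 and 11 without DNMAML experiment 3. F13A1 was the 1 gene of the 13 called in all 6. The log2 differences themselves kept their sign in each of the 13 genes over these fits.

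In all 13 called genes the 3 NIC1 responses and the 3 DNMAML responses did not overlap. The genes were called on these same responses, so this follows largely from the call. Over all genes the 3 NIC1 responses lay wholly above for 6.76% and wholly below for 5.63%. Genes called for a wide gap between the NIC1 and DNMAML responses leave more room for a value between them. The IRES response, from libraries that did not define the contrast, lay between those responses in 13 of 13 called genes, which is therefore no separate support. It did so for 41.1% of all genes tested, for 84.6% of the 1304 genes at an unadjusted p under 0.05 and for 36.9% of the other 13733. F13A1, for instance, had a log2 IL-4 response of 1.07 in NIC1, 0.34 in DNMAML and 0.69 in IRES cells, and EGLN3 of 0.41 in NIC1, 2.43 in DNMAML and 1.58 in IRES cells.

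**Figure D1:**
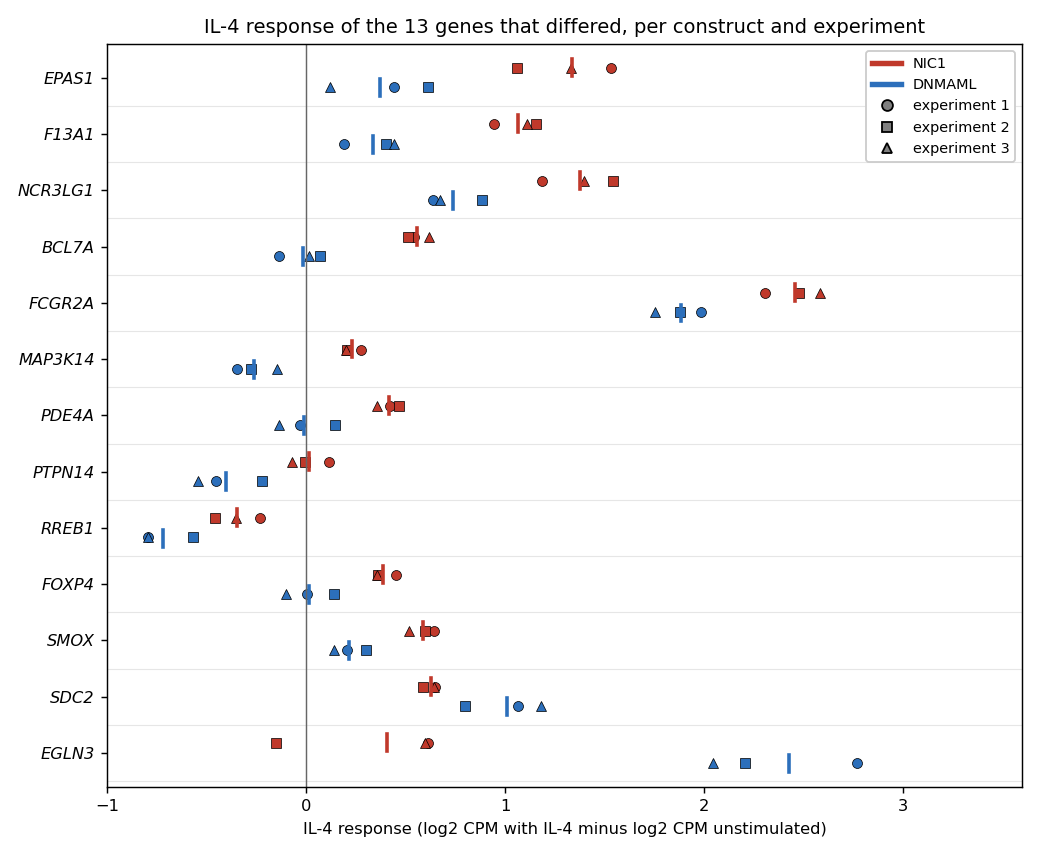
IL-4 response (log2 CPM with IL-4 minus log2 CPM unstimulated) of the 13 called genes, 1 point per construct and experiment, with a bar at the fitted response. The NIC1 points (red, upper) lie to the right of the DNMAML points (blue, lower) in the first 11 genes and to the left in SDC2 and EGLN3, with no overlap within a gene.

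The called genes fell into patterns of level. A difference in response is the gap between constructs with IL-4 minus the gap without it, so such patterns follow in part from the call. The gap in mean level was larger without IL-4 in 7 of the 13 called genes (53.8%) and in 52.6% of all genes with counts in the 4 groups. In F13A1, NCR3LG1, EPAS1 and FOXP4, all 3 unstimulated NIC1 libraries lay below all 3 unstimulated DNMAML libraries (8.01% of all genes), while the libraries with IL-4 overlapped. In MAP3K14, PDE4A, PTPN14, RREB1 and SMOX the unstimulated libraries overlapped, and those with IL-4 were all higher in NIC1 (8.52% of all genes, while 7.16% lay lower in NIC1 there). Within experiments, the unstimulated NIC1 library was above its DNMAML counterpart in 3 of 3 for SMOX and PTPN14, below in 3 of 3 for MAP3K14 and mixed for PDE4A and RREB1. BCL7A and SDC2 were higher in NIC1 in both conditions, EGLN3 was higher in NIC1 only without IL-4 (8.25% of all genes lay higher in NIC1 there), and FCGR2A overlapped in both.

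F13A1 (ENSG00000124491, chr6:6144085-6321013, minus strand) encodes the A subunit of coagulation factor XIII, a transglutaminase that monocytes and alternatively activated macrophages make. It stood at 71.2, 59.5 and 70.0 CPM in experiments 1 to 3 of NIC1 with IL-4 and at 37.0, 26.7 and 32.4 CPM in NIC1 unstimulated. In DNMAML it was at 63.7, 60.0 and 51.8 CPM with IL-4 and at 55.9, 45.4 and 38.1 CPM unstimulated. The levels reached with IL-4 overlapped, and every unstimulated NIC1 library was below every DNMAML one. IL-4 raised F13A1 2.09-fold in NIC1 and 1.26-fold in DNMAML cells, a log2 difference of 0.73 ± 0.099 (SE; edgeR adjusted p = 0.00117), with 0.76, 0.75 and 0.67 in experiments 1, 2 and 3. Its adjusted p stayed between 0.000869 and 0.0371 when any 1 pair was left out.

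EPAS1 (ENSG00000116016, chr2:46293667-46386703, plus strand) encodes HIF-2α, an oxygen-regulated transcription factor. It was at 15, 11.5 and 16.7 CPM in NIC1 with IL-4 and at 5.10, 5.41 and 6.56 CPM in NIC1 unstimulated, against 13.1, 10.7 and 13.2 CPM in DNMAML with IL-4 and 9.66, 6.95 and 12.1 CPM in DNMAML unstimulated. Every unstimulated NIC1 library was below every DNMAML library, with or without IL-4. IL-4 raised EPAS1 2.53-fold in NIC1 and 1.29-fold in DNMAML cells, and the log2 difference was 0.97 ± 0.165 (edgeR adjusted p = 0.00948). It was 1.09, 0.45 and 1.22 in the 3 experiments. The call was lost without NIC1 experiment 1 (adjusted p = 0.14), NIC1 experiment 3 (0.0672), DNMAML experiment 1 (0.0561) or DNMAML experiment 3 (0.0692), at log2 differences of 0.82 to 1.01.

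NCR3LG1 (ENSG00000188211, chr11:17351726-17377341, plus strand) encodes B7-H6, a ligand of the natural killer cell receptor NKp30. It lay at 45.2, 43.9 and 48.2 CPM in NIC1 with IL-4 and at 19.8, 15 and 18.2 CPM in NIC1 unstimulated. DNMAML libraries had 36.0, 49.1 and 39.5 CPM with IL-4 and 23.1, 26.6 and 24.8 CPM unstimulated. As in F13A1, the construct groups were apart without IL-4 and overlapped with it. The log2 difference was 0.64 ± 0.106 (edgeR adjusted p = 0.00948), from a 2.59-fold rise in NIC1 and a 1.67-fold rise in DNMAML cells. It was not called without NIC1 experiment 3 (adjusted p = 0.0672) or DNMAML experiment 1 (0.0946).

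FOXP4 (ENSG00000137166, chr6:41546426-41602384, plus strand), a forkhead transcription factor, had an IL-4 response that was called in NIC1 and not in DNMAML cells: 146, 172 and 175 CPM in NIC1 with IL-4 and 107, 134 and 137 CPM in NIC1 unstimulated, against 161, 168 and 158 CPM in DNMAML with IL-4 and 161, 153 and 169 CPM in DNMAML unstimulated. Every unstimulated NIC1 library was below every DNMAML library, and with IL-4 1 NIC1 library lay below and 2 above the 3 DNMAML ones. The log2 response was 0.39 in NIC1 and 0.01 in DNMAML cells, and the difference of 0.37 ± 0.065 was called (edgeR adjusted p = 0.00948). Leaving out NIC1 experiment 1 (0.111), NIC1 experiment 3 (0.0669) or DNMAML experiment 1 (0.0946) ended the call.

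BCL7A (ENSG00000110987, chr12:122019422-122062044, plus strand) encodes a subunit of the SWI/SNF chromatin remodelling complex. It stood at 41.7, 45.1 and 44.4 CPM in NIC1 with IL-4, 28.6, 31.5 and 28.9 CPM in NIC1 unstimulated, 22.6, 25.8 and 23.4 CPM in DNMAML with IL-4 and 24.8, 24.6 and 23.2 CPM in DNMAML unstimulated. IL-4 raised it in NIC1 cells, and the DNMAML libraries with and without IL-4 overlapped. The responses were 0.56 in NIC1 and -0.02 in DNMAML cells on the log2 scale, a difference of 0.58 ± 0.096 (edgeR adjusted p = 0.00948). The call was lost without NIC1 experiment 3 (0.0672) or DNMAML experiment 1 (0.12). A long non-coding RNA on the other strand shares 642 exon bases with BCL7A, and reads of either cannot be told apart in unstranded libraries.

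PDE4A (ENSG00000065989, chr19:10416773-10469631, plus strand), a phosphodiesterase that breaks down cyclic AMP, had 205, 258 and 243 CPM in NIC1 with IL-4 and 153, 187 and 190 CPM in NIC1 unstimulated. DNMAML libraries had 198, 205 and 183 CPM with IL-4 and 202, 186 and 202 CPM unstimulated. A rise with IL-4 was seen in each NIC1 pair and in 1 of 3 DNMAML pairs. The log2 difference was 0.42 ± 0.072 (edgeR adjusted p = 0.00948), and the call was lost without NIC1 experiment 1 (0.111), NIC1 experiment 3 (0.0669) or DNMAML experiment 1 (0.0946). PDE4A was the 1 called gene whose IL-4 response was not called in IRES cells (adjusted p = 0.48).

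SMOX (ENSG00000088826, chr20:4120980-4187747, plus strand) encodes spermine oxidase, an enzyme of polyamine breakdown. It lay at 108, 152 and 116 CPM in NIC1 with IL-4, 69.1, 100.3 and 81.2 CPM in NIC1 unstimulated, 64.6, 103 and 74.1 CPM in DNMAML with IL-4 and 56.0, 83.5 and 67.3 CPM in DNMAML unstimulated. IL-4 raised it in both, 1.5-fold in NIC1 and 1.16-fold in DNMAML cells. The log2 difference of 0.37 ± 0.075 was just inside the threshold (edgeR adjusted p = 0.0496), and it was called in 1 of the 6 fits with a pair left out, that without DNMAML experiment 2 (0.014). The adjusted p in the other 5 ran from 0.0914 to 0.266.

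PTPN14 and RREB1 were genes that IL-4 lowered more in DNMAML cells. PTPN14 (ENSG00000152104, chr1:214348696-214552449, minus strand), a tyrosine phosphatase that binds the coactivator YAP, had 263, 277 and 263 CPM in NIC1 with IL-4, 243, 278 and 276 CPM in NIC1 unstimulated, 141, 209 and 154 CPM in DNMAML with IL-4 and 193, 244 and 224 CPM in DNMAML unstimulated. It fell in each DNMAML pair, and its NIC1 pairs changed by -0.07 to 0.11 on the log2 scale. The difference was 0.42 ± 0.076 (edgeR adjusted p = 0.0235). RREB1 (ENSG00000124782, chr6:7107597-7251980, plus strand), a zinc-finger factor of Ras-responsive promoters, had 116, 121 and 125 CPM in NIC1 with IL-4 and 137, 166 and 160 CPM in NIC1 unstimulated, against 111, 111 and 106 CPM in DNMAML with IL-4 and 192, 165 and 183 CPM in DNMAML unstimulated. RREB1 fell in both, to 0.79 of its unstimulated level in NIC1 and to 0.61 in DNMAML cells, a log2 difference of 0.37 ± 0.071 (edgeR adjusted p = 0.0235). PTPN14 kept its call in 1 of 6 fits with a pair left out, that without DNMAML experiment 2 (adjusted p 0.0521 to 0.266 in the others), and RREB1 in 2, those without NIC1 or DNMAML experiment 2 (0.0739 to 0.266 in the others). KRT18P12, a pseudogene on the other strand, shares 1213 exon bases with PTPN14.

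MAP3K14 (ENSG00000006062, chr17:45263119-45317145, minus strand) encodes NIK, the kinase of the non-canonical NF-κB pathway, and was the 1 called gene whose responses were called in opposite directions. It stood at 27.6, 29.2 and 26.5 CPM in NIC1 with IL-4 and 22.8, 25.3 and 23.0 CPM in NIC1 unstimulated, against 21.7, 25.1 and 20.9 CPM in DNMAML with IL-4 and 27.6, 30.4 and 23.2 CPM in DNMAML unstimulated. Every NIC1 pair rose and every DNMAML pair fell. The log2 response was 0.23 in NIC1 cells (edgeR adjusted p = 0.0281) and -0.26 in DNMAML cells (0.00924), and the difference was 0.49 ± 0.101 (0.0498). The call was kept without DNMAML experiment 2 (0.0414) or 3 (0.036) and lost in the other 4 fits with a pair left out (0.0806 to 0.266). MAP3K14-AS1, on the other strand, shares 713 exon bases with it.

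FCGR2A (ENSG00000143226, chr1:161505430-161524013, plus strand), the activating IgG receptor FcγRIIa of macrophages, had the strongest IL-4 response of the 13 in NIC1 cells. It reached 138, 104 and 138 CPM in NIC1 with IL-4, against 27.8, 18.6 and 22.9 CPM in NIC1 unstimulated, and 139, 71.5 and 97.3 CPM in DNMAML with IL-4, against 35.0, 19.3 and 28.7 CPM in DNMAML unstimulated. The construct groups overlapped at both conditions, and the gain was 5.49-fold in NIC1 and 3.69-fold in DNMAML cells. The log2 difference was 0.57 ± 0.102 (edgeR adjusted p = 0.0151), and it was 0.32, 0.60 and 0.83 in experiments 1 to 3. It was not called without NIC1 experiment 3 (0.158), DNMAML experiment 1 (0.0561) or DNMAML experiment 3 (0.077). Reads shared with its near-identical neighbours FCGR2B and FCGR2C may be split between the genes or left uncounted, so its level is uncertain.

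EGLN3 had the widest called difference and the opposite sign. It encodes PHD3, a prolyl hydroxylase that marks HIF-α subunits for breakdown and is itself a HIF target (ENSG00000129521, chr14:33924231-34462774, minus strand). It lay at 9.83, 5.21 and 9.53 CPM in NIC1 with IL-4 and 6.39, 5.81 and 6.24 CPM in NIC1 unstimulated, against 19.9, 8.30 and 15.7 CPM in DNMAML with IL-4 and 2.80, 1.68 and 3.69 CPM in DNMAML unstimulated. Without IL-4 every NIC1 library was above every DNMAML library. With IL-4 NIC1 was below DNMAML within each experiment. The response was not called in NIC1 cells (1.32-fold, edgeR adjusted p = 0.269) and was 5.38-fold in DNMAML cells, for a log2 difference of -2.02 ± 0.321 (adjusted p = 0.0356). It was -2.16, -2.36 and -1.45 in experiments 1 to 3. The call held without NIC1 experiment 2 (0.0229) or DNMAML experiment 2 (0.0365) and was lost without NIC1 experiment 1 (0.266), NIC1 experiment 3 (0.137), DNMAML experiment 1 (0.191) or DNMAML experiment 3 (0.0832), at log2 differences between -2.24 and -1.75.

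SDC2 (ENSG00000169439, chr8:96493351-96611780, plus strand) encodes syndecan-2, a heparan sulphate proteoglycan of the cell surface. It was at 249, 278 and 221 CPM in NIC1 with IL-4 and 159, 185 and 142 CPM in NIC1 unstimulated, against 162, 161 and 149 CPM in DNMAML with IL-4 and 77.4, 92.7 and 65.8 CPM in DNMAML unstimulated. NIC1 was higher in both conditions, and the fold rise was lower, 1.54 in NIC1 and 2.02 in DNMAML cells. The log2 difference was -0.39 ± 0.078 (edgeR adjusted p = 0.0498). On the linear scale its sign turned: SDC2 gained 87.4 CPM in NIC1 and 78.8 CPM in DNMAML cells, a difference of 8.61 CPM. The call was kept only without DNMAML experiment 2 (0.000869), and the adjusted p in the other 5 fits with a pair left out ran from 0.108 to 0.266.

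**Figure D2:**
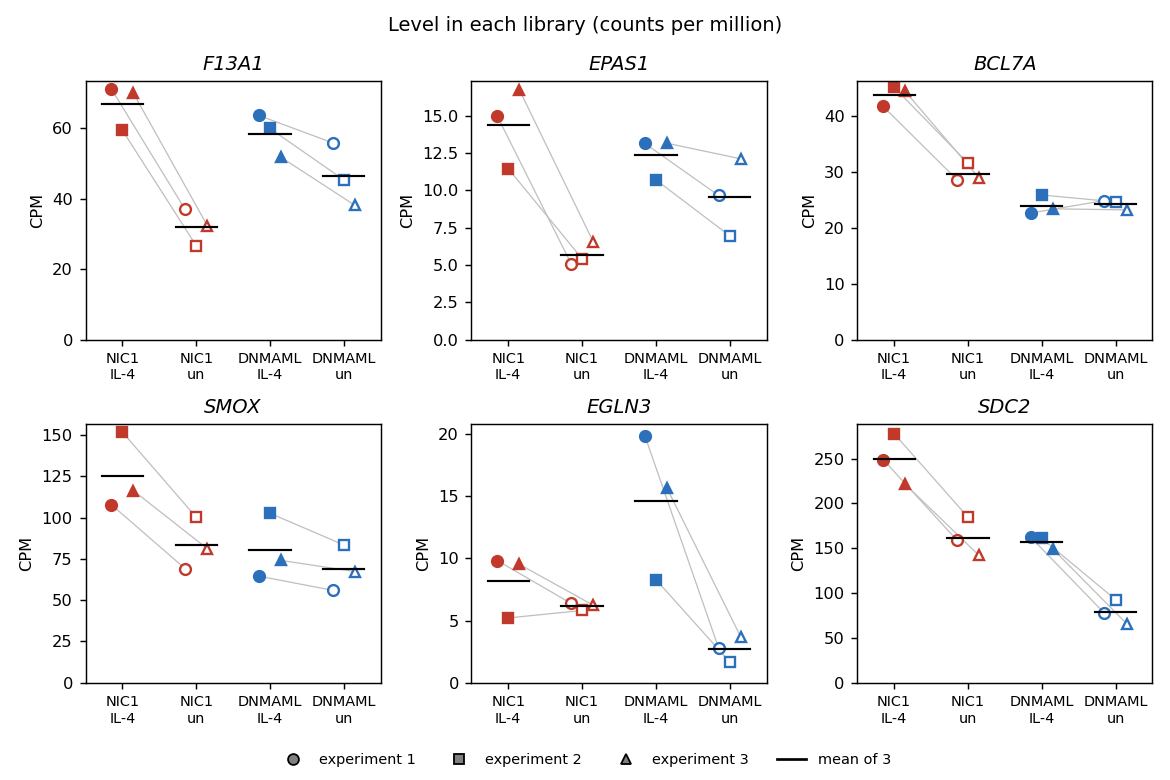
Level in CPM of 6 called genes in each library (filled, with IL-4; open, unstimulated; lines join the libraries of 1 construct and experiment; black bars, means of 3). F13A1 and EPAS1 are lower in NIC1 only without IL-4, BCL7A and SDC2 are higher in NIC1 in both conditions, SMOX is higher in NIC1 with IL-4, and EGLN3 ranges from 5.21 to 9.83 CPM in NIC1 with IL-4 and from 8.30 to 19.9 CPM in DNMAML with IL-4.

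Beyond the threshold lay genes that were not called. CEBPA, a transcription factor of myeloid differentiation, was the nearest (edgeR adjusted p = 0.0584). It had 404, 312 and 362 CPM in NIC1 with IL-4, 169, 133 and 169 CPM in NIC1 unstimulated, 407, 263 and 338 CPM in DNMAML with IL-4 and 221, 145 and 173 CPM in DNMAML unstimulated, a log2 difference of 0.29 ± 0.061. It was called without DNMAML experiment 3 (0.0257) and in the fit with an added IL-4 effect per experiment number (0.027). MAP3K14 was the last gene inside the threshold, at an adjusted p of 0.0498. Of the genes named by smallest p, most of those above 0 were called, so more uncalled genes below 0 are described here. Uncalled genes above 0 lay as near, such as GPD2 and THBD (main-fit edgeR adjusted p = 0.0603) and NF1 and HSPG2 (0.0978). Their differences were above 0 in the fit with an added IL-4 effect per experiment number. Over all genes, 764 lay above 0 and 540 below at an unadjusted p under 0.05. The genes of negative difference with the smallest p held a mix of functions. The log2 response of IL18RAP, the accessory chain of the IL-18 receptor, was 0.32 in NIC1 and 1.40 in DNMAML cells (difference -1.08 ± 0.252, adjusted p = 0.128). TAGAP, a GTPase-activating protein of leukocytes, had 1.01 in NIC1 and 1.43 in DNMAML cells (-0.42 ± 0.098, 0.099), and SLA, a Src-like adaptor, 0.48 in NIC1 and 0.78 in DNMAML cells (-0.29 ± 0.067, 0.0978). The survival kinase PIM2 had 0.16 in NIC1 and 0.65 in DNMAML cells (-0.50 ± 0.115, 0.099), and the fractalkine receptor CX3CR1 0.07 in NIC1 and 0.38 in DNMAML cells (-0.31 ± 0.078, 0.158). WWC1, ZNF121, ISCA2, MANF and VBP1 had differences between -0.51 and -0.32 with adjusted p between 0.0978 and 0.156. The fit with an added IL-4 effect per experiment number called TAGAP, IL18RAP, SLA, VBP1 and PIM2 (0.0152 to 0.0479), and TAGAP (0.0276) and CX3CR1 (0.0257) were called without DNMAML experiment 3. VBP1, a prefoldin subunit, was one of 3 genes whose responses were both called with opposite signs, at -0.19 in NIC1 and 0.19 in DNMAML cells. The others were MAP3K14 and the pseudogene TMSB4XP6, whose reads may belong to its parent TMSB4X. TMSB4XP6 had 5, 3 and 8 counts in NIC1 with IL-4, 22, 4 and 13 in NIC1 unstimulated, 2, 5 and 34 in DNMAML with IL-4 and 2, 4 and 3 in DNMAML unstimulated. Its log2 difference of -3.34 was -1.68 without DNMAML experiment 3 (adjusted p = 0.886).

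The canonical IL-4 and STAT6 genes responded strongly under both constructs. Of 29 measured members of that list, 18 were raised and 4 lowered in NIC1 cells, and 19 were raised and 4 lowered in DNMAML cells. F13A1 was the 1 member with a called difference. At an unadjusted p under 0.05, 4 lay above 0 (13.8% of the list, against 5.08% of all genes) and 3 below (10.3%, against 3.59%). Differences were above 0 for 11 members and below for 18, with a median of -0.20 (0.006 over all genes). The medians of experiments 1 to 3 were -0.28, 0.01 and -0.05, so the sign was not shared, and without DNMAML experiment 3 the median was -0.09, with 5 above 0 and 1 below. CISH, a STAT-induced inhibitor of cytokine signalling, was at 110, 108 and 111 CPM in NIC1 with IL-4 and at 2.36, 2.47 and 1.92 CPM in NIC1 unstimulated. DNMAML libraries had 151, 108 and 114 CPM with IL-4 and 2.66, 2.12 and 1.88 CPM unstimulated. The constructs overlapped in both conditions, and the log2 difference was -0.20 ± 0.202 (95% interval -0.61 to 0.22).

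Among the 24 fixed genes, chosen with earlier results of these data known, PPARG, a nuclear receptor of lipid metabolism, came closest to a call. It had 39.3, 30.3 and 35.2 CPM in NIC1 with IL-4, 13.3, 7.96 and 12.3 CPM in NIC1 unstimulated, 27.4, 20.2 and 21.4 CPM in DNMAML with IL-4 and 11.5, 8.05 and 14.2 CPM in DNMAML unstimulated. Unstimulated libraries overlapped and those with IL-4 were higher in NIC1. The log2 difference was 0.61 ± 0.162 (edgeR adjusted p = 0.174), and 0.36 without DNMAML experiment 3. With an added IL-4 effect per experiment number it was called (0.0449). ALOX15, a lipoxygenase of alternatively activated macrophages, differed by 0.60 (95% interval -0.09 to 1.29), the cytokine signalling inhibitor SOCS1 by -0.20 (-0.96 to 0.56, and -0.08 without DNMAML experiment 3), the transglutaminase TGM2 by -0.80 (-2.09 to 0.49) and the hyaluronan synthase HAS3 by -0.77 (-1.76 to 0.23). Each of these intervals includes 0 and is wide, though HAS3 was called at -0.77 (adjusted p = 0.00538) with an added IL-4 effect per experiment number. On the linear scale the sign turned from below 0 to above for the fixed genes SOCS1, TGM2, CD1C, IL1RN, CLEC4A and FCER2. It turned from above 0 to below for ANKRD22 and HES4. TGM2, for instance, gained 572 CPM in NIC1 and 514 CPM in DNMAML cells. CD1C, a lipid antigen-presenting molecule, was low in DNMAML cells (0.272 to 0.621 CPM with IL-4, 0 to 0.220 CPM unstimulated) and had a difference of -1.77 ± 0.687 (adjusted p = 0.449). SERPINB4, a protease inhibitor, was at 5.02, 6.98 and 6.4 CPM in NIC1 with IL-4 and 4.56, 3.49 and 3.85 CPM in DNMAML with IL-4. It had no counts in any unstimulated library of either construct, so no difference between its responses can be given. The receptor IL4R and STAT6 itself had differences of 0.10 (95% interval -0.03 to 0.23) and 0.08 (-0.05 to 0.21).

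The IL-4 program as a whole was compared through genes chosen on the IRES libraries. IL-4 raised 1091 genes in IRES cells (7.26%), and 822 of these were called raised in NIC1 and 861 in DNMAML cells. Their median difference was 0.004, and 113 lay above 0 and 79 below at an unadjusted p under 0.05 (10.4% and 7.24%, against 5.08% and 3.59% of all genes). The slope of each construct's log2 responses on the IRES responses over the 2256 IRES-called genes was 0.79, 0.74 and 0.83 in experiments 1 to 3 of NIC1 and 0.79, 0.76 and 0.82 in DNMAML. Across those genes, which share libraries and are not independent replicates, NIC1 and DNMAML responses had a Pearson r of 0.955, and of 0.747 over all 15037 genes tested. The slopes of NIC1 and DNMAML overlapped. The genes were chosen by their IRES response, and values per experiment carry a prior count that shrinks responses of low genes. Both lower the slopes of either construct. The slopes therefore compare NIC1 with DNMAML and cannot say whether either response was weaker than in IRES cells.

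**Figure D3:**
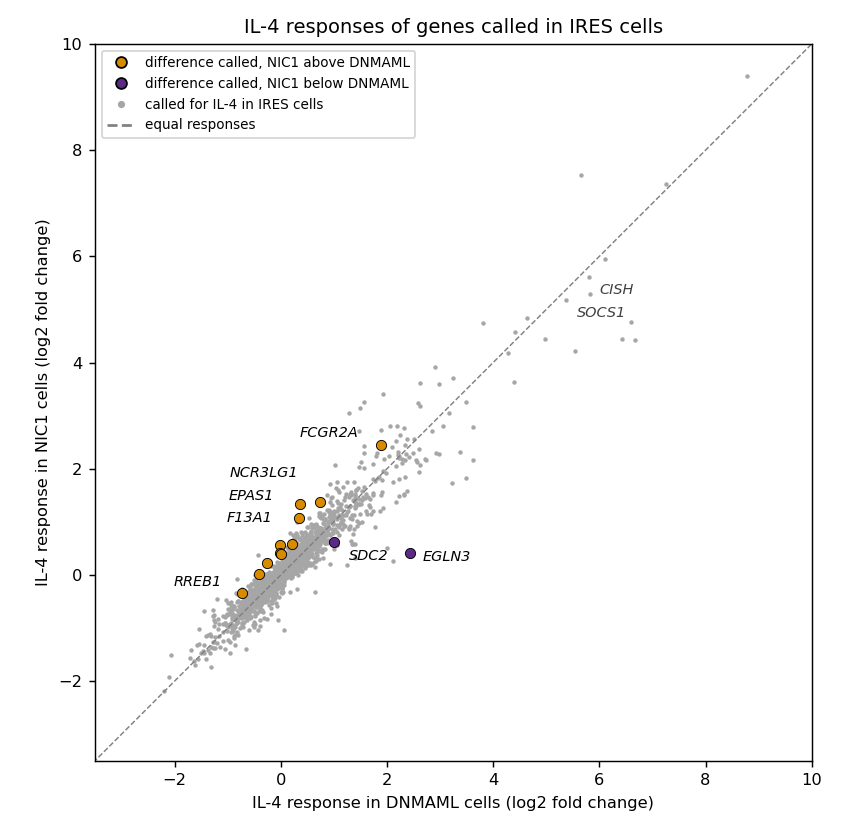
IL-4 response in NIC1 cells (vertical, log2 fold change) against that in DNMAML cells (horizontal) for 2256 genes called for IL-4 in IRES cells (grey), with the 13 called differences in colour (PDE4A among them was not called in IRES cells) and the line of equal responses. Most genes lie along the line, CISH and SOCS1 among them, and EGLN3 stands farthest from it among the called genes.

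Genes that IL-4 lowered in IRES cells leaned to one side. Of 1165 such genes (7.75%), 142 had a difference above 0 at an unadjusted p under 0.05 and 23 below (12.2% and 1.97%, against 5.08% and 3.59% of all genes), and 64.9% were above 0, against 51.5% of all genes. The median difference was small, 0.045, with 0.046, 0.014 and 0.101 in experiments 1 to 3. A difference above 0 here means a smaller fall, no change or a rise in NIC1 cells relative to the DNMAML response. Without DNMAML experiment 3 the counts were 83 above and 21 below and the median 0.019, against 506 (3.37%) above 0 over all genes in that fit. Among the 82 genes lowered over 2-fold in IRES cells, 42 were above 0 and 40 below (51.2% above), with a median of 0.009 in the main fit. At an unadjusted p under 0.05, 7 of these (8.54%) lay above and 3 (3.66%) below.

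The difference also ran with annotated gene length. In the tertile of genes with the longest exon sequence (median 8492 bases) 8.50% had a difference above 0 at an unadjusted p under 0.05 and 2.0% below. In the shortest tertile (median 2195 bases) 2.56% lay above and 5.54% below. Median differences were 0.037 in the longest and -0.036 in the shortest tertile. In the longest tertile they were 0.052, -0.008 and 0.066 in experiments 1, 2 and 3, so the lean was seen in experiments 1 and 3 and not in experiment 2. Of the 13 called genes 7 were in the longest tertile. The part of transcript length or RNA quality in any single difference was not tested.

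Components of the Notch pathway leaned above 0, with none called, though LFNG (adjusted p = 0.0137) and EP300 (0.0205) were called in the fit with an added IL-4 effect per experiment number. Of 43 measured components 12 lay above 0 at an unadjusted p under 0.05 (27.9%, against 5.08% of all genes) and 0 below (against 3.59%). DESeq2 placed 8 above, and without DNMAML experiment 3 the count was 6 (14%, against 3.37% of all genes). The list was drawn up with earlier results of these data known. Its median difference was 0.066, or 0.052 without DNMAML experiment 3, and per experiment 0.10, 0.03 and 0.11. Of the 12, 9 were in the longest tertile of genes, with a median exon length of 11798 bases, against 4670.5 bases over all genes with a length.

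Among these components LFNG, a glycosyltransferase that modifies Notch receptors, had the largest difference above 0. It was at 15.8, 32.3 and 13.1 CPM in NIC1 with IL-4, 26.5, 43.3 and 24.9 CPM in NIC1 unstimulated, 5.93, 13 and 6.87 CPM in DNMAML with IL-4 and 16.1, 27.2 and 18.4 CPM in DNMAML unstimulated. IL-4 lowered it in both, by 0.66 in NIC1 and 1.28 in DNMAML cells on the log2 scale. The difference was 0.62 ± 0.151 (edgeR adjusted p = 0.147), with 0.68, 0.63 and 0.49 in experiments 1 to 3. The coactivators EP300 (0.37 ± 0.087, adjusted p = 0.166), CREBBP (0.27 ± 0.070, 0.167) and MAML1 (0.28 ± 0.082, 0.257) lay above 0 together with the receptors NOTCH1 (0.18 ± 0.066, 0.417), NOTCH2 (0.17 ± 0.068, 0.489) and NOTCH3 (0.27 ± 0.071, 0.17). Others of the 12 were PSENEN, a subunit of γ-secretase, the ubiquitin ligase component FBXW7, and the corepressors SPEN and NCOR1. Without DNMAML experiment 3 the differences were 0.23 for EP300, 0.18 for CREBBP and 0.16 for MAML1. MAML1 and NOTCH1 counts can include reads of the vectors. The ligands JAG1 (-0.70 ± 0.444) and DLL1 (-0.12 ± 0.106) and the receptor NOTCH4 (-0.45 ± 0.320) had differences below 0 within the spread.

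**Figure D4:**
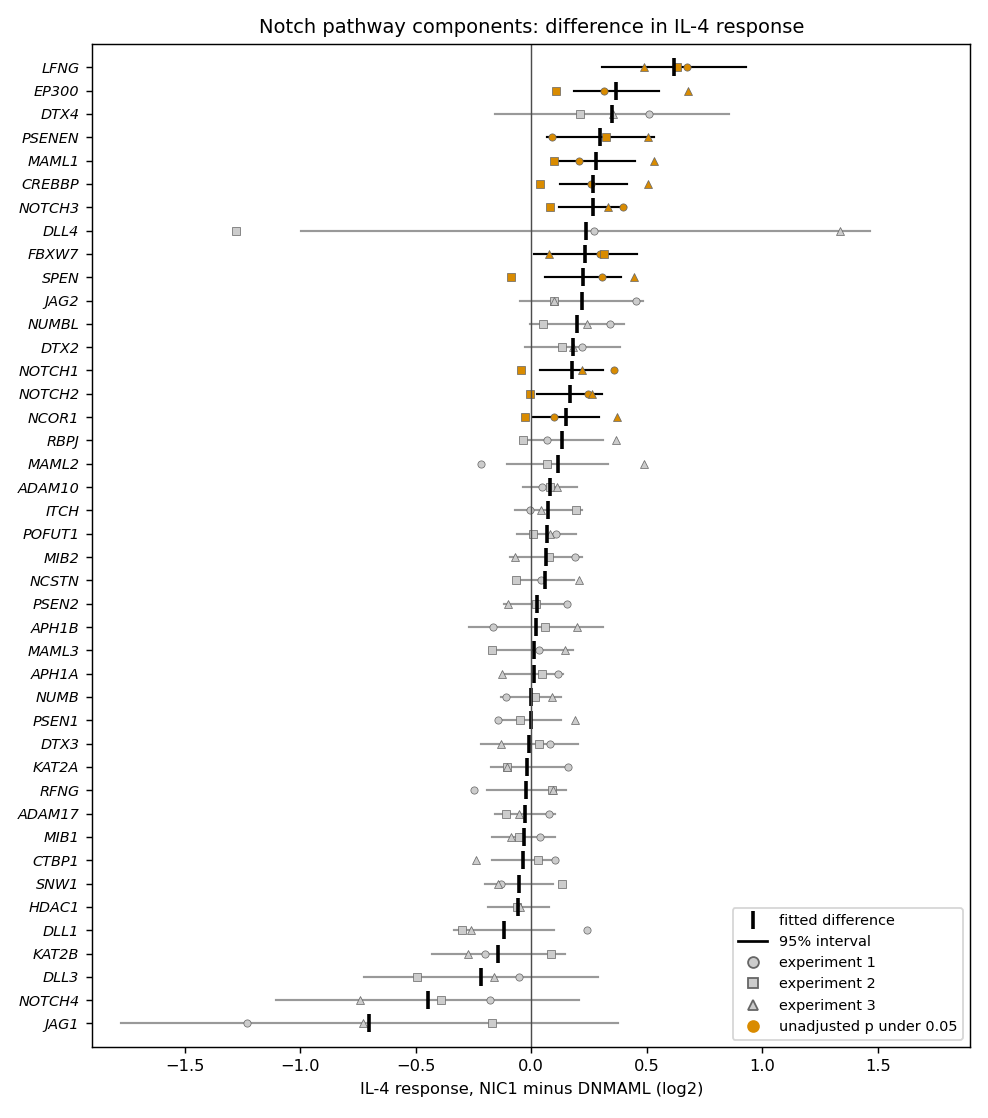
Difference in IL-4 response, NIC1 minus DNMAML (log2), for 42 of the Notch pathway components, with the fitted value (vertical mark), its 95% interval (line) and the value in each experiment (symbols, orange where the unadjusted p was under 0.05). The 11 orange genes all lie above 0, and the experiment 2 values (squares) of SPEN, NCOR1, NOTCH1 and NOTCH2 lie at or below 0.

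Of 16 direct targets of Notch measured, none was called for the difference. HES1, NOTCH3 and CCND1 lay above 0 at an unadjusted p under 0.05 (18.8%, against 5.08% of all genes), with 0 below. The median was 0.09, and without DNMAML experiment 3 it was 0.23, with 3 above 0 and 2 below. HES1, a repressor that Notch induces directly, was at 23.8, 32.5 and 24.6 CPM in NIC1 with IL-4 and 23.6, 32.6 and 26.0 CPM in NIC1 unstimulated, against 4.84, 12.1 and 5.90 CPM in DNMAML with IL-4 and 6.0, 16.5 and 7.22 CPM in DNMAML unstimulated. Its level separated the constructs at both conditions, and its log2 response was -0.02 in NIC1 cells and -0.37 in DNMAML cells, where the fall was called (edgeR adjusted p = 0.0129). The difference was 0.34 ± 0.127 (adjusted p = 0.41). HEY1 was raised by IL-4 in both, by 1.05 in NIC1 and 0.96 in DNMAML cells, and differed by 0.09 ± 0.270, or 0.29 without DNMAML experiment 3. HES4 (0.25 ± 0.219), NRARP (-0.24 ± 0.199), DTX1 (0.67 ± 0.454) and MYC (-0.04 ± 0.108) did not pass the threshold.

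In the other lists calls were rare, 2 in all: FCGR2A among 22 macrophage identity genes and EGLN3 among 24 genes of glycolysis and hypoxia. No other hypoxia gene was called. ENO2 (0.39 ± 0.110), PFKFB3 (0.20 ± 0.096) and GPI (0.16 ± 0.061) lay above 0 at an unadjusted p under 0.05, the HIF targets VEGFA (0.11 ± 0.073) and SLC2A1 (0.10 ± 0.100, and 0.05 without DNMAML experiment 3) did not pass, and EPAS1 itself was in no list. Of 24 immediate early genes 7 lay above 0 (29.2%, against 5.08% of all genes) and 2 below (8.33%, against 3.59%) at an unadjusted p under 0.05, with 4 above and 2 below without DNMAML experiment 3. DUSP1, a phosphatase that ends MAP kinase signalling, led them at 0.48 ± 0.153 (edgeR adjusted p = 0.34), with EGR1, FOS, FOSL2, JUND, KLF6 and NR4A3, while IER5 and KLF4 lay below. KLF4, a myeloid transcription factor, fell in both, by 1.32 in NIC1 and 0.87 in DNMAML cells.

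Interferon-stimulated genes had a median difference of -0.11, with 24 of 31 below 0 and 3 (IFI6, IRF1 and OASL) below at an unadjusted p under 0.05 (9.68%, against 3.59% of all genes). Without DNMAML experiment 3 the median was -0.06 and the count 1. Experiments 1 to 3 gave medians of -0.16, -0.12 and 0.05, so the sign was not shared. Of 25 genes of protein and amino acid stress, ATF4, XBP1 and MANF lay below 0 at an unadjusted p under 0.05 and none above. The inflammatory and NF-κB list had 4 above (16.7%, against 5.08% of all genes) and 1 below of 24, or 3 and 0 without DNMAML experiment 3. The sterol and fatty acid list had 5 above (20.8%) and 2 below of 24, or 3 and 1 without it. The 26 components of IL-4 receptor signalling had 2 above (7.69%) and 1 below, or 1 and 1 without it. The 30 cell cycle genes had 1 above and 0 below, and the 7 MHC class II genes measured had none. Mitochondrially encoded genes rested on 1 library: their median difference was 0.48 over 13 genes, with -0.14, -0.02 and 1.67 in experiments 1 to 3, and -0.02 without DNMAML experiment 3. Markers of T cells, B cells, fibroblasts, epithelium and erythroid cells gave no call, and of 5 T cell markers measured 1, ZAP70 (0.74 ± 0.350), lay above 0 at an unadjusted p under 0.05. ITGA2B, an integrin chain of megakaryocytes and the 1 marker of its list measured, lay below (-1.25 ± 0.582). Neither list had a member at that threshold without DNMAML experiment 3.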

How the data were processed

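RNA-seq of 18 libraries was used. The deposited files hold whole-number read counts per Ensembl gene, not normalized, made by the authors. The submitters' processing notes name FastQC, Trimmomatic, HISAT2, HTSeq and DESeq2 and the build GRCh38.p12. Tool versions, the annotation release and the strand setting were not given in the sources used here. The TruSeq kit named in the labels' protocols does not mark strand. Reads naming no gene (23.8% to 30.9% per library) were left out. Of 58051 genes, 55702 had a unique symbol, 57447 were found in GENCODE release 29 (GRCh38, 1-based coordinates) and 15037 passed edgeR's filterByExpr over the 6 groups.

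All libraries were fitted with edgeR 4.0.16 (TMM, robust quasi-likelihood), with 1 block per construct and experiment number and 1 IL-4 effect per construct. This left 6 residual degrees of freedom. p-values were adjusted by Benjamini-Hochberg over all genes tested. The standard error was derived from the F statistic. Values per experiment are differences of log2 CPM with a prior count of 2. An exact permutation test of 3 against 3 values cannot go below p = 0.1, so none was used. Deviations from the group means correlated between libraries with and without IL-4 of 1 construct and number in all 9 pairs (Pearson r across genes 0.376 to 0.759). The median for different numbers was -0.406. Deviations cancel within a group of 3 libraries, which pulls that median down, so it is no fair comparator. Pairs of 1 number across constructs are not given here. Pairing within a construct therefore cannot be told from a shared experiment. Replicates differed by more than counting noise. Chi-square per degree of freedom was 5.68 to 14.1 between experiments 1 and 3 of a group. It was 22.8 to 50.6 between experiment 2 and either of them, in all 6 groups.

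Alternatives were DESeq2 1.42.0, limma 3.58.1 (voom), RLE scaling, no filter, the 12 libraries alone, other blocks, and leaving out each pair. The linear CPM gain was added after seeing the data.

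Named genes were the 13 called, the 12 of smallest p in each direction with at least 2 CPM in a group and 1 sign in all 3 experiments, 24 fixed genes, genes with opposite called responses, and each list's extremes. The comparison, the 21 lists and the fixed genes were chosen with earlier results of these data known. Other genes named from lists were chosen by their unadjusted p or their role. Exon lengths are unions of GENCODE exons. R 4.3.3, Python 3.11.15 and matplotlib 3.10.9 were used. Some items are not reported here.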

Additional observations from a re-analysis of the deposited data

Results flagged for a closer look

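Each of the 13 genes below stands here because the same contrast, IL-4 against unstimulated, gave a different effect under NIC1 and under DNMAML by edgeR's test of the difference itself. The log2 differences, NIC1 response minus DNMAML response, were 0.97 for EPAS1, 0.73 for F13A1, 0.64 for NCR3LG1, 0.58 for BCL7A, 0.57 for FCGR2A, 0.49 for MAP3K14, 0.42 for PDE4A, 0.42 for PTPN14, 0.37 for RREB1, 0.37 for FOXP4, 0.37 for SMOX, -0.39 for SDC2 and -2.02 for EGLN3. Each had its sign in 3 of 3 experiments, which 14.5% of all genes had above 0 and 13% below 0. The genes were called on these same experiments, so the shared sign is no separate support. F13A1 was called in 13 of 15 other fits.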

How the results depend on the processing

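Calls of the difference (13 genes, 11 above 0 and 2 below) came to 7 with DESeq2 (6 and 1), 10 with limma-voom (9 and 1), 12 with RLE scaling, 132 with no filter on low counts (91 and 41), 10 from the 12 libraries alone, 0 without the replicate block, 0 with a replicate block by experiment number only, 55 with an added IL-4 effect per experiment number (41 and 14), and 1 without both libraries of most detected genes and their pairs (1 and 0). Leaving out 1 pair gave 1 to 126 calls, 1 to 94 above 0 and 0 to 32 below. Genes at an unadjusted p under 0.05 numbered 1304, and 459 with DESeq2, 214 without the replicate block, 610 with the number-only block and 821 without both libraries and their pairs. The response counts were 2157 in NIC1 and 2560 in DNMAML, against 1362 and 1568 with DESeq2, 458 and 493 without the block and 1323 and 1496 with the number-only block. They were not refitted with the IL-4 effect per experiment. Notch components above 0 at an unadjusted p under 0.05 numbered 12, 2 without the replicate block, 5 without both libraries, and 6 to 13 with 1 pair left out. Genes lowered in IRES cells gave 142, and 68 with DESeq2, 10 without the block, 54 with the number-only block, 71 without both libraries and 83 to 198 with 1 pair left out. The 1 reversal of a called gene was SDC2, at 8.61 CPM on the linear scale, whose unstimulated level was higher in NIC1. Fits without a pair have fewer libraries, and for the other changes the cause was not tested. Depth limits low genes such as CD1C and SERPINB4 most.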
